A study of Rattus norvegicus with 24 samples.

Results

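The response of the cerebral cortex to MK-801 was described from the 4 cortex arrays of 24 arrays in the series, which were chosen by the tissue named in their labels. MK-801 (dizocilpine) plugs the pore of NMDA receptors, a class of glutamate receptors, and the series measured gene expression in 6 dissected brain regions of Wistar rats. The 4 arrays were 2 dye swaps, in which RNA of MK-801 rats and RNA of saline rats were hybridised together with Cy3 and Cy5 and the dyes were then exchanged. Arrays 1 and 2 held cortex RNA of rats given 0.16 mg/kg MK-801 (high dose) against saline cortex, and arrays 3 and 4 held cortex RNA of rats given 0.08 mg/kg (low dose) against saline cortex. All 9 rats were Wistar males, 10 weeks old and housed 3 per cage, and their brains were taken 40 min after an injection into the abdomen. Of these rats, 6 received MK-801 in 2 dose groups and 3 received saline. Neither the rat behind each array nor any pooling of rats is given in the labels, so each dye swap counted as 1 value and the spread between rats is not in any number below. Saline RNA for both doses came from 1 group of 3 rats, and which of them each swap used is not given. A difference between these sets of rats that is unrelated to the drug cannot be told apart from a drug response.

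The NMDA receptor is a glutamate-gated cation channel that opens when glutamate and a co-agonist bind while the membrane is depolarised, and calcium entering through it links synaptic activity to transcription. Immediate early genes are the first genes transcribed after a stimulus, without the need for new protein, and many encode transcription factors such as Fos and Jun. The cortex also holds vessels, glia and adhering meninges, whose cells have early response genes and structural genes of their own.

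On a cortex array 70.2% to 78.5% of probes were called well above background in each colour, and log2 ratios had an SD of 0.149 to 0.157. A total of 22617 genes or transcripts were well above background in both colours on all 4 arrays, of which 11482 had a gene symbol. The labelled tissue was checked in the saline channel. Among 20 cortical projection neuron markers that were measured, 3 had their highest level in the cortex and 10 were second. The upper layer marker Cux2 averaged 11.58 ± 0.04 log2 units in the cortex (SD, n = 4 arrays), against 11.05 in the amygdala, the next region. None of the 14 striatal markers and 1 of 8 hippocampal markers was highest in the cortex.

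Ratios are given as log2 of MK-801 over saline. With 1 swap per dose no test was possible within a dose, so a gene was called where it passed 1.5-fold (0.585 on the log2 scale) in the same direction on both arrays of the swap, and genes past it in opposite directions gave the background of the measurement. At the high dose 28 genes were called higher (0.124% of those measured) and 7 lower (0.031%), and 2 genes went in opposite directions. At the low dose 23 genes were called higher (0.102%) and 38 lower (0.168%), and 3 genes went in opposite directions. The low-dose excess of lower genes depended on the setting, with 15 higher and 17 lower under median centring and 12 higher and 7 lower at 2-fold. Under the scanner software's own log ratios the high dose gave 45 higher and 26 lower genes, a more even split, and held every one of the 35 genes called here. At the median gene the distance between the arrays of a swap exceeded their shared signal: the swap mean had a median size of 0.05 at the high dose and 0.04 at the low dose, against 0.08 at each dose for the distance of an array from that mean. Across the 22617 genes the arrays of a swap correlated at r = -0.11 at the high dose and r = -0.20 at the low dose, as a description of genes that share 2 labelled extracts. Arrays of different doses with the same dye orientation correlated at r = 0.62 (arrays 1 and 3) and r = 0.71 (arrays 2 and 4). Across all genes the ratios were thus more alike by dye orientation than within a swap. One array alone would have passed 67 or 82 genes at the high dose and 95 or 123 at the low dose. Ndrg2, an astrocyte-enriched gene, was past the threshold in opposite directions at the high dose with 0.68 and -0.69, and Rps23, a ribosomal protein gene, at the low dose with 0.67 and -0.64.

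**Figure D1:**
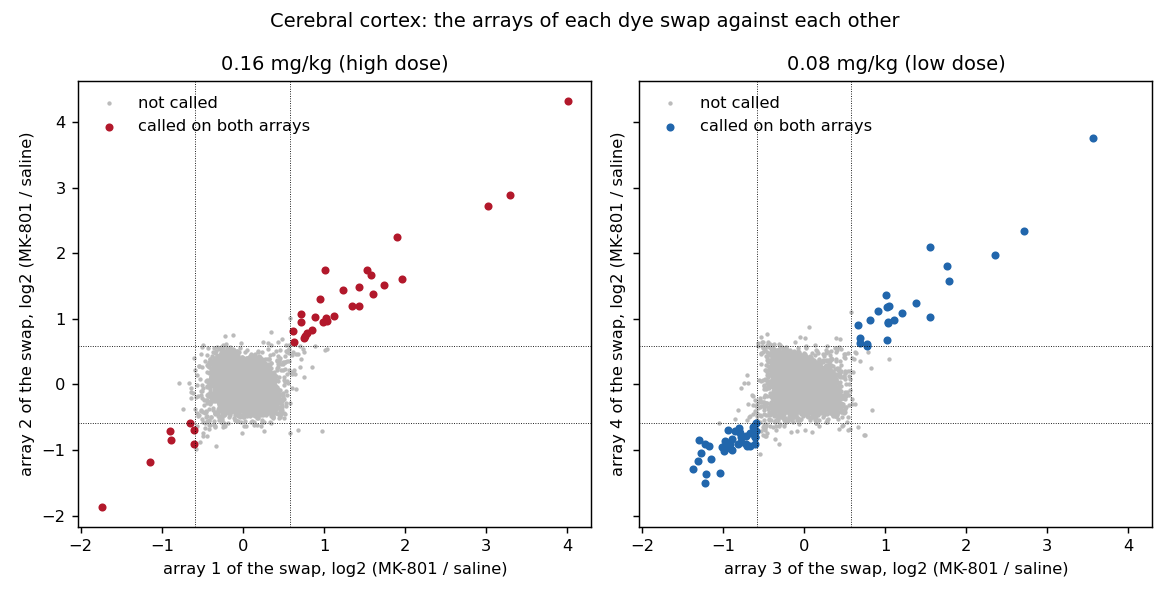
Log2 MK-801 over saline ratio of every measured gene on one array of the dye swap (x axis) against the other (y axis), at the high dose on the left and the low dose on the right. Dotted lines mark 1.5-fold and coloured points are called genes, 35 at the high dose and 61 at the low dose. Called genes lie along the rising diagonal, and the low dose has a cluster of 38 genes at the lower left.

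Called at each of the doses were 17 higher genes (0.0752%), 14 of them with a symbol, and 2 lower genes (0.00884%), 1 with a symbol. Median centring gave 11 higher and 0 lower. Both comparisons use saline RNA of the same group of rats, so this overlap counts a shared control as well as a shared response. The named genes were immediate early transcription factors and signalling genes (Atf3, Btg2, Klf4, Ier2, Jun, Dusp1), genes of vessel cells or the vessel wall (Ccn1, Apold1, Adamts1, Klf2, Edn1) and stress-responsive genes (Depp1, Cebpd, Ccl2). The lower one was Galnt16.

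For 10 of these 15 genes RefSeq (GRCr8) gave a promoter, taken as the 250 bases before the start. The cyclic AMP response element, which binds CREB-family factors and is read TGACGTCA on either strand, was found in 3 of the 9 promoters of higher genes (Btg2, Dusp1, Ier2), against 1.59% of 33465 promoters of the same length. Its shorter core TGACG, which overlaps it, was found in 6 of the 9, against 18.2% of all. The letters TATAAA were found in 5 of the 9, against 12.9% of all. The AP-1 site (TGACTCA or TGAGTCA, 4.05% of all), the CArG box (1.5%), the glucocorticoid response element by its full palindrome (0.0359%) and the Egr site (GCGGGGGCG, 2.45%) were found in none of the 9. These counts describe letters in this window, and binding was not measured. The promoters of Btg2, Dusp1 and Ier2 are shown because they hold the full element, and that of Ccn1 because its change was the largest. They lie at chr13:48087691-48087940 (Btg2, minus strand), chr10:17184603-17184852 (Dusp1, plus strand), chr19:40399123-40399372 (Ier2, plus strand) and chr2:237225690-237225939 (Ccn1, minus strand). Capitals mark the cyclic AMP response element, its core on either strand, and TATAAA.
Btg2: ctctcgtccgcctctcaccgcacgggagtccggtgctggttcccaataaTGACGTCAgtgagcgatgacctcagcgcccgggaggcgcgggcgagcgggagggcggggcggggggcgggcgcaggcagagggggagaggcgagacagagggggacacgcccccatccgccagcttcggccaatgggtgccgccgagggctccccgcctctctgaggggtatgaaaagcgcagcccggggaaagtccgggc
Dusp1: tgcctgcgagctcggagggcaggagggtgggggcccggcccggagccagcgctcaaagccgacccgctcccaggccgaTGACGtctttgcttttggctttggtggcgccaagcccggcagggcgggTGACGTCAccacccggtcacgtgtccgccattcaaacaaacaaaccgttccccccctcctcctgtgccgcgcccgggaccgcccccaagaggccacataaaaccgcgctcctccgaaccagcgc
Ier2: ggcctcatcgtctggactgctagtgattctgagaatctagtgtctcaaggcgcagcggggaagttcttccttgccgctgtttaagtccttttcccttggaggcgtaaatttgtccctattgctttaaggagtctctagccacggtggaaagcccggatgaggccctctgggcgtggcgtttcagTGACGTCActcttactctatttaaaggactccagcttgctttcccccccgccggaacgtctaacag
Ccn1: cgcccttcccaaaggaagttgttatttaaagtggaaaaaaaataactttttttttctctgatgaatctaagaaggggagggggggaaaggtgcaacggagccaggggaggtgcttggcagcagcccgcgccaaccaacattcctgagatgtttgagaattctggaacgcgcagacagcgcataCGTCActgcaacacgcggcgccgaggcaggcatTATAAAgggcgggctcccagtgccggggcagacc

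The full element began 201 bases before the start in Btg2, 124 in Dusp1 and 66 in Ier2. In Ccn1 the core began 67 bases and TATAAA 34 bases before the start.

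Ccn1, a secreted protein of the extracellular matrix that cells make early after growth factor or mechanical stimulation, had the largest ratios, 4.01 and 4.32 on the high-dose arrays and 3.56 and 3.76 on the low-dose arrays. All 4 arrays were far above the threshold and those of the 2 doses did not overlap. The swap means correspond to 17.9-fold at the high dose and 12.6-fold at the low dose. A second Ccn1 probe, dimmer than the first, gave swap means of 2.49 and 2.21, so the size depended on the probe and the direction did not. Apold1, an early response gene of endothelial cells, stood at 3.29 and 2.88 at the high dose and at 2.72 and 2.34 at the low dose, that is 8.48-fold and 5.77-fold by the swap means. Its arrays again separated by dose.

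Among the transcription factors, Atf3, a stress-induced member of the ATF/CREB family, had 3.02 and 2.73 at the high dose and 2.35 and 1.97 at the low dose. Klf4, a zinc finger factor, had 1.97 and 1.60 at the high dose and 1.56 and 1.02 at the low dose. Jun, the partner of Fos in AP-1, had 1.04 and 0.97 at the high dose and 0.70 and 0.64 at the low dose. In each of these genes both high-dose arrays exceeded both low-dose arrays. Btg2, an early gene that restrains cell division, had 1.90 and 2.25 at the high dose and 1.77 and 1.81 at the low dose. Dusp1, a phosphatase that inactivates MAP kinases, had 1.44 and 1.48 at the high dose and 0.91 and 1.11 at the low dose. Ier2, a short early gene, had 1.35 and 1.20 against 1.04 and 0.94 at the low dose. Both arrays of each dose were past the threshold in all of these genes.

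Vessel genes followed the same order of doses. Adamts1, a secreted metalloprotease, had 1.54 and 1.75 at the high dose and 1.22 and 1.09 at the low dose, and Klf2, a flow-responsive endothelial factor, 1.44 and 1.19 at the high dose and 1.03 and 0.95 at the low dose. Edn1, which encodes the vasoconstrictor endothelin 1, had 0.75 and 0.71 at the high dose and 0.77 and 0.61 at the low dose, and these overlapped. Depp1, a FOXO target, also overlapped between doses, with 1.60 and 1.38 at the high dose and 1.39 and 1.24 at the low dose. Cebpd, a C/EBP factor of the acute phase, had 1.24 and 1.44 at the high dose and 0.81 and 0.98 at the low dose. Ccl2, a chemokine that attracts monocytes, had 1.58 and 1.67 at the high dose and 1.11 and 0.98 at the low dose. Of the 17 genes called higher at both doses, 14 had both high-dose arrays above both low-dose arrays and 3 overlapped, and none had the low-dose arrays on top. The share of all measured genes whose arrays separated by dose was not counted, so this order is a description only.

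Galnt16, an enzyme that starts O-linked glycosylation, was lower at both doses, with -1.74 and -1.86 at the high dose and -0.91 and -0.91 at the low dose. The arrays within each swap nearly coincided. In the 5 other regions its swap means ran between -2.24 and -1.78 at the high dose and between -0.78 and -0.51 at the low dose, so the cortex did not stand out (limma, cortex minus the other regions, adjusted p = 1.0 at each dose).

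Another 11 genes were called higher at the high dose only and had low-dose swap means between 0.13 and 0.57, all above 0. Sik1, a kinase induced by cyclic AMP, had 0.95 and 1.30 at the high dose and 0.44 and 0.70 at the low dose. Fos had 0.72 and 1.08 at the high dose and 0.01 and 0.71 at the low dose, and its low-dose arrays lay far apart. Nr4a1, an orphan nuclear receptor of the early response, had 0.72 and 0.96 at the high dose and 0.30 and 0.50 at the low dose. These are weaker ratios in the same direction, and the difference between doses was not tested within the cortex. Hspa1a, the inducible Hsp70 chaperone, differed more, with 0.80 and 0.79 at the high dose and 0.16 and 0.10 at the low dose. A second Hspa1a probe gave swap means of 0.58 and 0.24. Sgk1, a kinase induced by glucocorticoids, had 0.76 and 0.74 at the high dose and 0.54 and 0.48 at the low dose. Cebpb had 0.62 and 0.82 against 0.23 and 0.47 at the low dose, and Abcg2, an efflux transporter of the blood-brain barrier, 0.63 and 0.64 against 0.49 and 0.46. The cortex did not stand out for Abcg2, as its high-dose swap means ran between 0.54 and 0.83 in the other regions. The remaining 4 were Ch25h, Bcl6b, Ppp1r15a and a transcript without a symbol, which were named after their values were seen. Lower at the high dose only were 5 genes, among them Sox18, an endothelial transcription factor, with -0.88 and -0.85 at the high dose and -0.48 and -0.67 at the low dose. P3h3, a collagen-modifying hydroxylase, had -0.61 and -0.91 at the high dose and 0.56 and 0.13 at the low dose, on opposite sides of 0. Outside the filter, Sycp3l2 was not well above background in saline RNA on the high-dose arrays and at least 2.77-fold higher in MK-801 RNA there.

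**Figure D2:**
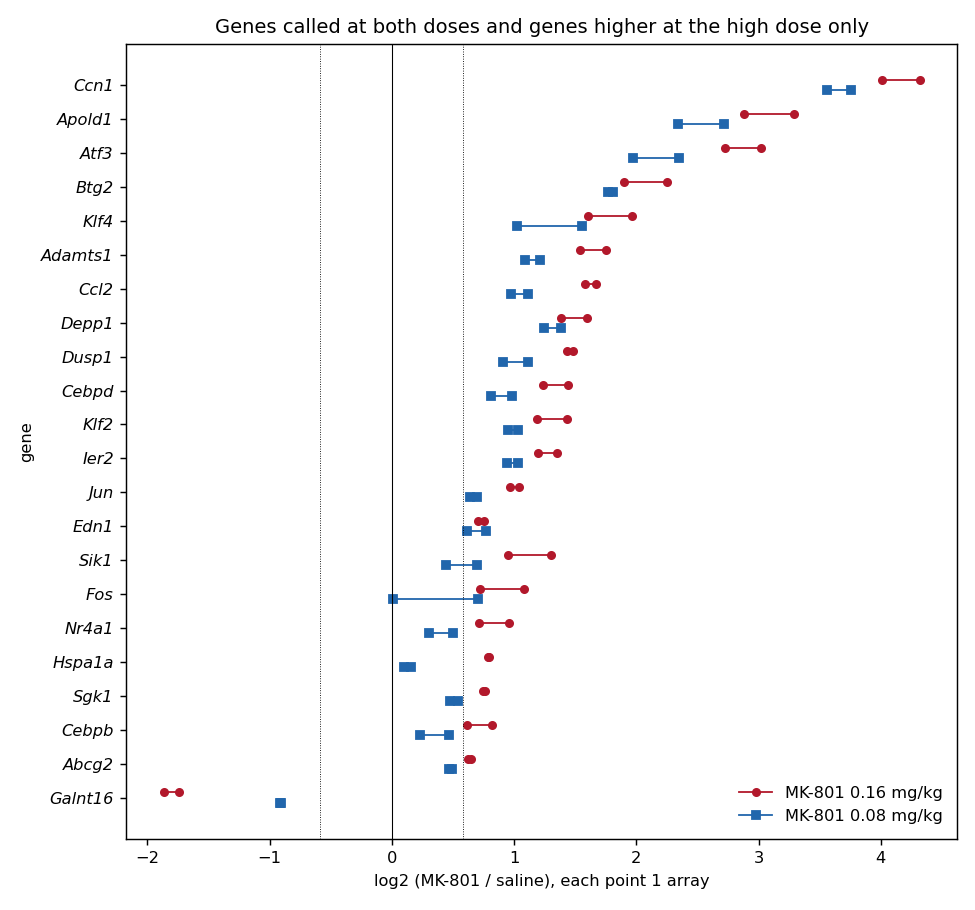
Log2 MK-801 over saline ratio on each array, for the 15 named genes called at both doses and the named genes higher at the high dose only. Each row is a gene, red circles are the arrays of the high dose and blue squares those of the low dose, and dotted lines mark 1.5-fold. The circles lie to the right of the squares in most rows, Depp1, Edn1 and the lower gene Galnt16 excepted.

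A set of 36 genes was called lower at the low dose only, whose low-dose swap means ran between -1.36 and -0.59 (median -0.84). Their high-dose swap means ran between -0.45 and 0.17, with a median of -0.0033. Under median centring 17 of the 36 were still called lower at the low dose, and at 2-fold 7 were. The named members include collagens and other matrix genes, a potassium channel and genes of antigen presentation. Ogn, a small matrix proteoglycan, had -0.01 and -0.05 at the high dose and -1.22 and -1.50 at the low dose. Ptgds, the prostaglandin D synthase made in quantity by the leptomeninges, had 0.02 and -0.0015 at the high dose and -1.31 and -1.16 at the low dose. Col1a2, a chain of type I collagen, had 0.05 and 0.17 at the high dose and -1.27 and -1.05 at the low dose. In all of these the high-dose arrays lay near 0 and the low-dose arrays well below. Igf2 had -0.16 and 0.39 at the high dose and -1.29 and -0.85 at the low dose. Cdh1, the epithelial cadherin that leptomeningeal cells also carry, had 0.14 and -0.04 at the high dose and -1.03 and -1.35 at the low dose. Coch, a matrix protein, had -0.16 and -0.05 at the high dose and -1.37 and -1.29 at the low dose, but its second, dimmer probe gave swap means of -0.13 and -0.12. Col1a1 likewise had -0.96 and -0.97 at the low dose, while its other probes gave swap means of -0.32 and -0.18. Tnnt2 and Kcnj13, a troponin and a potassium channel, showed the same pattern, with low-dose ratios of -1.21 and -1.37 for Tnnt2 and of -1.15 and -1.13 for Kcnj13.

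As a list, 7 of 12 measured meningeal and fibroblast markers were called lower at the low dose and 0 at the high dose, against 0.168% of all genes lower at the low dose. The members of this and the other gene lists were chosen with earlier results of these data known, so such counts describe the data and test nothing. Under median centring 5 of the 12 were called. The list median was 0.04 at the high dose and -0.95 at the low dose, and the medians of all genes were 0.0032 and 0.0022. All 12 were below 0 on both low-dose arrays, and 3 were below 0 on both high-dose arrays. Among all 22617 genes, 3709 were below 0 on both low-dose arrays and 4268 on both high-dose arrays. The summed level of the list was 16.58 log2 units in high-dose MK-801 RNA and 15.42 in low-dose MK-801 RNA, against 16.54 and 16.58 in the saline RNA of the 2 swaps. The MK-801 RNA of the low dose thus stood below the other 3. This sum rests largely on Ptgds, which alone stood at 15.81 and 14.65 in the MK-801 RNA and at 15.80 and 15.89 in the saline RNA. In a dissected tissue, fewer cells of a type and less RNA per cell cannot be told apart, and how much meninges each dissection kept is not in the labels; its part in these ratios was not tested. Genes of antigen presentation were lower beside them: RT1-Da and Cd74, a class II chain and its invariant chaperone, had low-dose ratios of -0.78 and -0.88 and of -0.80 and -0.67, and high-dose ratios between -0.01 and 0.15. RT1-CE3, a class I gene, had -0.40 and -0.27 at the high dose and -0.86 and -0.71 at the low dose. The cortex did not stand out for RT1-CE3, as its low-dose swap means ran between -0.87 and -0.60 in the other regions. The mean of the other regions at that dose was -0.02 for RT1-Da and -0.03 for Cd74. Only these 3 of 23 genes of that list were called at either dose. Choroid plexus markers did not share the pattern as a list, with 1 of 7 lower at the low dose (Kcnj13) and a median of -0.0012. Ttr, their defining marker, had low-dose ratios of -0.29 and -0.24. It was dim in saline cortex RNA, at 6.88 log2 units against 15.24 in the amygdala. Clic6, Slc4a5 and Prlr of the same list stood between 6.56 and 6.61 there, while Kcnj13 had 8.36 and Enpp2 11.22. A fall in the dim members could be missed. The 5 measured red blood cell genes had a median of 0.38 at the high dose and -0.12 at the low dose, with 0 called. Their summed level was 16.65 log2 units in high-dose MK-801 RNA and 15.08 in low-dose MK-801 RNA, against 16.28 and 15.5 in the saline RNA of the same swaps.

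**Figure D3:**
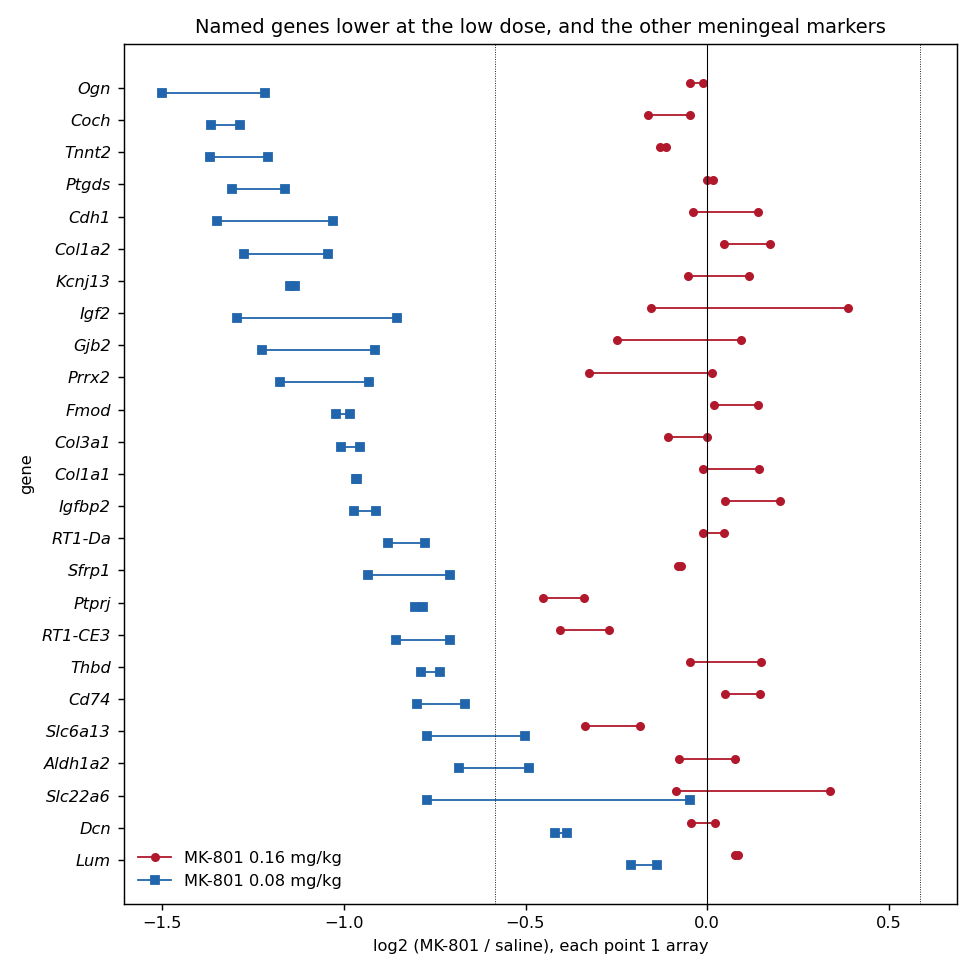
Log2 MK-801 over saline ratio on each array for the named genes lower at the low dose only and for the meningeal markers that were not called. Red circles are arrays of the high dose, blue squares arrays of the low dose, and dotted lines mark 1.5-fold. The circles gather around 0 and the squares lie to their left, from Ogn at the top to Lum, which was not called.

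Higher at the low dose only were 6 transcripts. The 1 with a symbol was Rsf1, a chromatin remodelling gene named after its values were seen, with 0.35 and 0.33 at the high dose and 0.78 and 0.59 at the low dose. The cortex did not stand out for Rsf1, as its low-dose swap means ran between 0.47 and 0.76 in the other regions. The transcript of the 6 with the largest low-dose swap mean had 1.68 in the cortex and between 1.83 and 2.35 in the other regions.

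Of 37 immediate early genes listed, 35 were measured, and 10 were called higher at the high dose and 7 at the low dose, with none lower at either, against 0.124% and 0.102% of all genes higher at these doses. This list too was chosen with earlier results of these data known, and the shares are given as a description. The list median was 0.15 at the high dose and 0.04 at the low dose, so most members stayed near 0. Several early genes known as markers of neuronal activity in cortex were not called. Arc, which encodes a synaptic protein, had 0.16 and 0.39 at the high dose and -0.05 and 0.20 at the low dose. Egr1, a zinc finger factor, had 0.02 and -0.12 at the high dose and -0.09 and -0.21 at the low dose. Bdnf, a neurotrophin, had -0.12 and -0.31 at the high dose and -0.19 and -0.14 at the low dose. None of these passed the threshold on any array. Fosb, Egr3 and Nptx2 lay between -0.24 and 0.22 on every array. For 2 members the probes disagreed: the brightest probe of Nr4a3 gave swap means of -0.15 and -0.26 where another gave 1.16 and 0.93, and a second Homer1 probe gave -0.49 and -0.50 where the first gave -0.14 and -0.03. In the saline channel 17 of the 35 early genes had their highest level in the cortex among the 6 regions.

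The list of vessel early response genes had 17 measured members, with 6 called higher and 1 lower at each dose, against 0.124% higher and 0.031% lower of all genes at the high dose and 0.102% and 0.168% at the low dose. Ccn1 and Klf4 are also on the immediate early list, so their calls count in both lists. The lower ones differed, Sox18 at the high dose and Thbd, the endothelial anticoagulant thrombomodulin, at the low dose, with -0.79 and -0.74. By contrast, markers of endothelial cells and pericytes themselves stayed near 0, with medians of -0.03 at the high dose and -0.05 at the low dose and 1 of 12 called (Abcg2, high dose). Cldn5, a tight junction gene, had -0.09 and 0.15 at the high dose and -0.23 and 0.12 at the low dose. Glucocorticoid and stress responsive genes had 5 of 17 called higher at the high dose and 3 at the low dose, with medians of 0.31 and 0.21, against 0.124% and 0.102% of all genes called higher. Of the 17, 15 were above 0 on both high-dose arrays and 11 on both low-dose arrays, where 4159 and 3640 of all 22617 genes were. The called members were Depp1, Dusp1, Cebpd, Sgk1 and Cebpb, and Dusp1 is also on the immediate early list. Tsc22d3 and Fkbp5 were not called. Tsc22d3 had 0.15 and 0.47 at the high dose and 0.13 and 0.35 at the low dose. These are from a probe at 9.63 and 9.58 log2 units in the saline RNA of the 2 swaps. A brighter Tsc22d3 probe, at 14.36 in saline cortex RNA, was left out by the filter or for a missing value. Fkbp5, a chaperone of the glucocorticoid receptor, had 0.30 and 0.09 at the high dose and 0.17 and -0.10 at the low dose.

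Genes of the drug's target were not called. The 4 measured NMDA receptor subunits had swap means between -0.07 and 0.04 at the high dose and between -0.02 and 0.12 at the low dose. Grin1, the obligatory subunit, had 0.0017 and -0.09 at the high dose and 0.06 and 0.0040 at the low dose. None of 16 other glutamate receptor genes, 19 GABA and interneuron genes, 18 potassium channel genes or 13 circadian clock genes was called at either dose. Pvalb, the marker of fast-spiking interneurons, had 0.06 and 0.06 at the high dose and 0.13 and 0.10 at the low dose. Markers of projection neurons, astrocytes, microglia and oligodendrocytes also gave 0 calls, with list medians between -0.03 and 0.13.

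**Figure D4:**
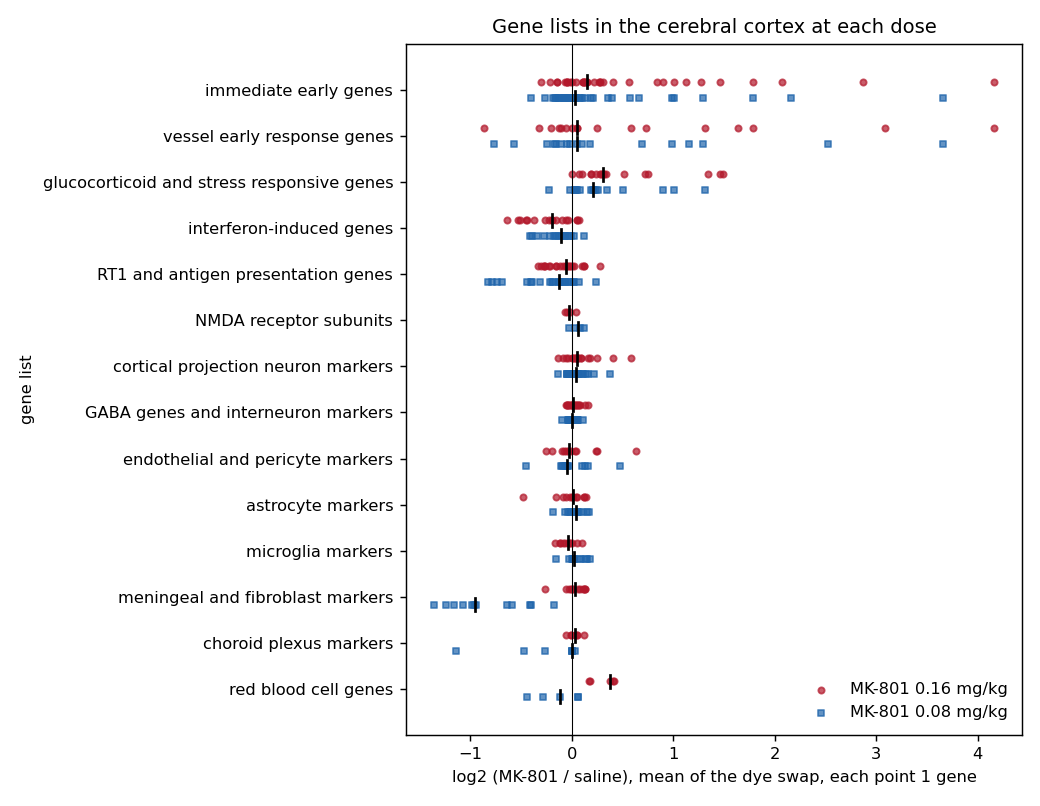
Swap mean of the log2 MK-801 over saline ratio (x axis) for every measured gene of 14 lists (rows), with red circles for the high dose, blue squares for the low dose and black bars at the list medians. The upper 3 lists have long tails to the right, and the meningeal list is shifted to the left at the low dose, with a median of -0.95, and not at the high dose.

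The change over both doses was then tested with limma against 0, on 1 swap mean per dose. This found 57 genes higher (0.252%) and 54 lower (0.239%) at an adjusted p under 0.05. The spread in this test is that between 2 dose groups, and the spread of saline rats is left out. Ccn1 (3.91 ± 0.10 SE, limma adjusted p = 8.79e-05), Btg2 (1.93 ± 0.07, adjusted p = 0.000208), Depp1 (1.40 ± 0.05, adjusted p = 0.000208) and Apold1 (2.81 ± 0.11, adjusted p = 0.000364) led the higher genes. Galnt16 (-1.36 ± 0.18, adjusted p = 0.0387) and Sox18 (-0.72 ± 0.07, adjusted p = 0.0121) had the largest falls among the named genes. Interferon-induced genes appeared here though none was called past 1.5-fold: 3 of 17 fell, none rose, and 11 were below 0 on both high-dose arrays and 9 on both low-dose arrays. Of all 22617 genes, 4268 were below 0 on both high-dose arrays and 3709 on both low-dose arrays. Gbp2, a guanylate-binding protein, had -0.52 and -0.39 at the high dose and -0.49 and -0.32 at the low dose (adjusted p = 0.00971). Rtp4 had -0.41 and -0.61 at the high dose and -0.24 and -0.54 at the low dose (adjusted p = 0.0138). Isg15, a ubiquitin-like modifier, had -0.46 and -0.43 at the high dose and -0.41 and -0.28 at the low dose (adjusted p = 0.0191). Among early genes 8 rose and Egr2 fell, with -0.30 and -0.30 at the high dose and -0.34 and -0.47 at the low dose (adjusted p = 0.0292). These calls depended on the normalization. With the scanner software's log ratios 0 genes passed (2395 at an unadjusted p under 0.05), with median centring 4 higher and 0 lower did, and without array 4 the count was 59.

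To ask where the cortex differed from the rest of the brain, its swap mean was compared by limma with those of the 5 other regions, the cortex being 1 value assumed to vary like the others. All 6 regions were dissected from the same 9 rats, so the region values are not independent animals and the p-values measure the spread between regions only. Over both doses and at the high dose no gene passed of 17497 tested (0% each), with 357 and 495 at an unadjusted p under 0.05. At the low dose 22 genes did (0.126%), 6 higher and 16 lower in the cortex. Each region lay on a slide of its own, so region and slide cannot be told apart, and the ventral striatum shared the cortex's scan day.

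Atf3 had a low-dose swap mean of 2.16 in the cortex and of -0.35 in midbrain, 0.14 in amygdala, 0.24 in ventral striatum, -0.10 in hippocampus and -0.39 in hypothalamus. The cortex was highest, 2.25 ± 0.19 (SE) above the mean of the others (limma adjusted p = 0.00129). At the high dose the same gene had 2.87 in the cortex and -0.10 in midbrain, 1.79 in amygdala, 2.03 in ventral striatum, 1.64 in hippocampus and 0.55 in hypothalamus, and the difference did not pass (adjusted p = 1.0). Apold1 had 2.53 in the cortex against 0.30 to 1.10 elsewhere at the low dose, a difference of 1.85 ± 0.24 (adjusted p = 0.0182). Btg2 had 1.79 against 0.17 to 0.84 elsewhere, a difference of 1.34 ± 0.18 (adjusted p = 0.0231). Depp1 and Cebpd differed by 1.12 ± 0.18 (adjusted p = 0.035) and 0.69 ± 0.09 (adjusted p = 0.017). These 5 genes were highest in the cortex of all regions, with the ventral striatum or amygdala next. Against the ventral striatum alone, scanned on the same day, the low-dose differences were 1.92 for Atf3, 1.43 for Apold1, 0.95 for Btg2, 0.92 for Depp1 and 0.57 for Cebpd. Ccn1, in spite of its size, did not pass at the low dose (3.66 in the cortex against -0.04 to 2.58 elsewhere, adjusted p = 0.408), and the other regions had an SD of 1.01.

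On the lower side were genes also called lower at the low dose within the cortex, among others. Coch differed from the other regions by -1.14 ± 0.17 at the low dose (limma adjusted p = 0.032), Tnnt2 by -1.09 ± 0.14 (adjusted p = 0.017), Prrx2, a mesenchymal homeobox gene, by -0.96 ± 0.14 (adjusted p = 0.0235) and Gjb2, a gap junction gene of the meninges, by -0.89 ± 0.12 (adjusted p = 0.0235). RT1-Da, Sfrp1, Cd74 and Ccl19 differed by -0.80, -0.77, -0.70 and -0.63. The second, dimmer Coch probe had a low-dose swap mean of only -0.12 in the cortex. Of the 8 meningeal markers that could be tested, 0 passed: Ptgds differed by -1.04 ± 0.21 (adjusted p = 0.144), with the hippocampus at -0.70. Col1a2 had low-dose swap means of -0.70 in hippocampus, -0.50 in midbrain, -0.10 in amygdala, 0.06 in ventral striatum and 0.18 in hypothalamus. At the high dose it had -0.89 in hippocampus and 0.86 in midbrain. Against the ventral striatum alone the differences were -1.32 for Coch, -0.95 for Tnnt2, -1.16 for Prrx2 and -0.94 for Gjb2. The number of low-dose calls rested on particular data: it was 4 without the hypothalamus, 7 without array 3 and 2 without array 4 in every region. It was 0 with the scanner software's log ratios and 1, Atf3, with the scan day as a block. With a trended, robust prior in limma 17 genes passed, but Atf3 (adjusted p = 0.0681) and Apold1 (adjusted p = 0.708) did not.

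For the high minus low difference 3 genes passed (0.0171%), all higher in the cortex. Coch had a high minus low difference of 1.22 in the cortex and 0.05 ± 0.14 in the other regions (SD, 5 regions), and the contrast was 1.17 ± 0.12 SE (limma adjusted p = 0.0049). This rests on the brighter Coch probe, as the dimmer one gave cortex swap means of -0.13 at the high dose and -0.12 at the low dose. Slc13a3, a dicarboxylate transporter, had a contrast of 0.97 ± 0.12 (adjusted p = 0.0258), and the other was a transcript without a symbol. Both named genes were lower at the low dose in the cortex and near 0 at the high dose. Atf3 went the other way without passing, with high minus low differences of 0.71 in the cortex and 1.27 ± 0.67 in the other regions. The count was 34 without the midbrain and 1 without array 1 or array 3, and median centring gave 1 higher and 1 lower. When arrays were fitted one by one with the array number as a block, which counts each swap as 2 values, the region comparisons gave 26 genes over both doses, 3 at the high dose, 50 at the low dose and 13 for high minus low.

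**Figure D5:**
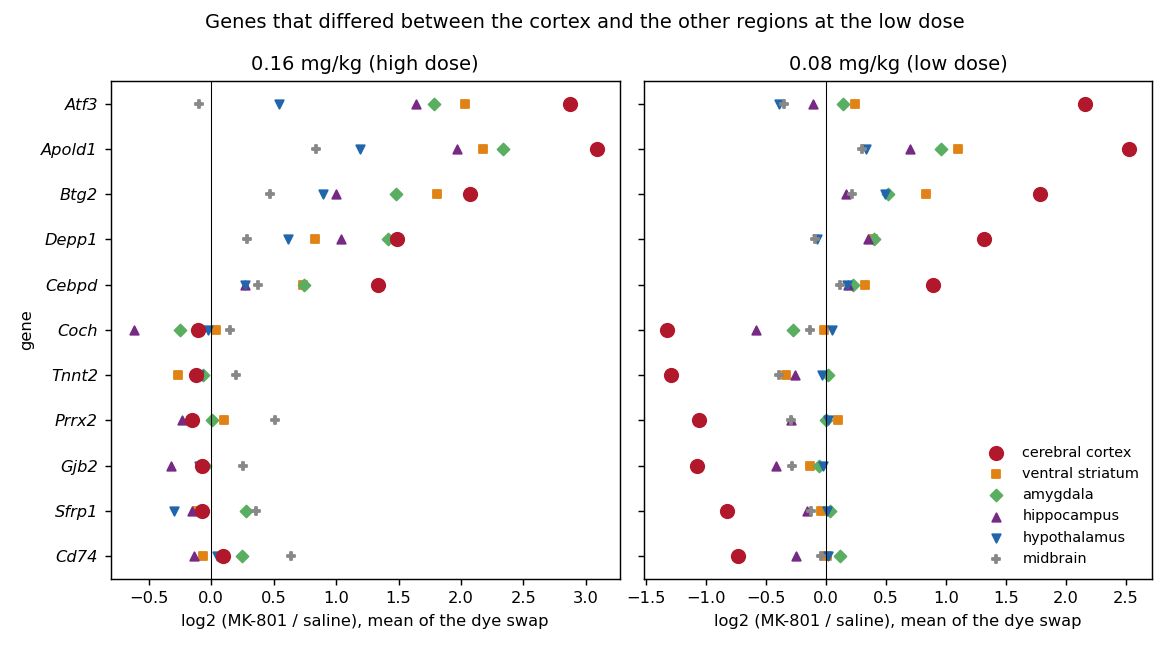
Swap mean of the log2 MK-801 over saline ratio (x axis) in the 6 regions for 11 named genes that differed between the cortex and the other regions at the low dose, with the high dose on the left and the low dose on the right. Large red circles are the cortex and smaller symbols the other regions. At the low dose the cortex lies outside the range of the other regions in every row, at 2.16 for Atf3 and -1.33 for Coch, while at the high dose it lies among the other regions for the lower 6 genes.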

How the data were processed

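Each array held spot intensities read by Agilent Feature Extraction 9.5.3.1, per the submitters' processing notes, and the deposited files give intensity per spot with background and flags. The deposited value table holds log10 ratios, which equalled the log10 ratio of the scanner software's processed signals on the cortex arrays within 5e-07; its direction was taken from the dyes named in the labels. From the deposited intensities, log2 ratios were computed with limma 3.58.1 (R 4.3.3) by normexp background correction (offset 50) and loess within arrays, with control spots at weight 0 and outlier spots left out. Every ratio was turned to MK-801 over saline, and both arrays of a dye swap were averaged into 1 value. Genes had to be well above background in each colour of all 4 cortex arrays, and for comparisons with other regions also on at least 16 of the 20 other arrays. The brightest probe that passed this filter and had a value on all 4 cortex arrays stood for its gene. Of 41012 probes, 20180 had a gene symbol, matched by accession (10861), symbol (5536) or synonym (3703) to RefSeq, and the files' name was kept for 20912.

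Calls within a dose had no test. limma's moderated test with Benjamini-Hochberg adjustment (threshold 0.05) was used over both doses and between regions, and was checked on simulated data. The array number marks dose and dye orientation, not animals, so arrays with the same number were not treated as pairs. The alternatives were other normalizations, filters, folds and probes, a scan day block, a replicate block, and leaving out each array or region. Within a dose, the highest and lowest 12 called genes with a symbol were named, with up to 20 called at both doses, 8 in each direction per limma result, 10 with the largest dose gap, 5 discordant per dose, and members of the gene lists. The gene lists and members were chosen with earlier results of these data known. Precision is limited by the number of arrays. The electrophysiology recordings were not analysed here.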

Additional observations from a re-analysis of the deposited data

Results flagged for a closer look

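The cortex differed from the other regions in 22 genes at the low dose by limma's test of that difference. The cortex was further above the other regions by 2.25 for Atf3, 1.85 for Apold1, 1.34 for Btg2, 1.12 for Depp1 and 0.69 for Cebpd on the log2 scale. It was below them by a difference of -1.14 for Coch, -1.09 for Tnnt2, -0.96 for Prrx2, -0.89 for Gjb2, -0.80 for RT1-Da, -0.77 for Sfrp1, -0.70 for Cd74 and -0.63 for Ccl19. The high minus low difference in the cortex was unlike that of the other regions in 3 genes, with a contrast of 1.17 for Coch and 0.97 for Slc13a3. Both Coch values rest on its brighter probe, and its dimmer probe gave cortex swap means of -0.13 and -0.12.

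In 11 called genes, 5 of them named here, both arrays of one dose lay on the opposite side of 0 from both arrays of the other, a difference between doses that was not tested. The share of all measured genes split in this way was not counted. A value on the other side of 0 could be close to it, as in Fmod with 0.02 and 0.14 at the high dose. High minus low was 1.27 for Col1a2, 1.08 for Fmod, 1.07 for Igfbp2 and 0.83 for Cd74. For P3h3 it was -1.10. In the 5 other regions high minus low was 0.15 ± 0.73 (SD) for Col1a2, 0.04 ± 0.39 for Igfbp2 and 0.18 ± 0.30 for Cd74. The gap for Col1a2 was not particular to the cortex. Its midbrain swap means were 0.86 at the high dose and -0.50 at the low dose.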

How the results depend on the processing

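Sign was followed only for named genes at a dose where they were called and for limma results that they passed. None of these values changed sign under an alternative. Other values of named genes were not tried. Leaving out 1 array could not turn a called value, because both arrays of its swap were past 1.5-fold in the same direction. The balance of counts did turn: the low dose had 23 higher and 38 lower genes, against 12 and 7 at 2-fold, and the change over both doses had 57 higher and 54 lower, against 59 and 67 without array 1, 65 and 71 without array 3 and 152 and 166 with the replicate block. The scanner software's log ratios and the deposited value table each gave 71 genes at the high dose, 99 at the low dose, and 0 over both doses, for the cortex against other regions at the low dose and for high minus low. Median centring gave 32 at the low dose (15 higher and 17 lower), 11 at both doses (11 higher and 0 lower), 4 over both doses and 13 for the cortex against other regions at the low dose. A lower threshold of 0.32 on the log2 scale gave 121 genes at the high dose, 169 at the low dose and 45 at both, and 2-fold gave 18, 19 and 9. At that lower threshold 89 genes at the high dose (0.394%) and 194 at the low dose (0.858%) went in opposite directions, and at 2-fold 0 did. Without the filter on dim probes the limma counts were 188 over both doses, 40 at the low dose between regions and 5 for high minus low. A trended, robust prior gave 375 over both doses, 86 of them among the 111. With the scan day as a block 1 gene stayed at the low dose and 0 for high minus low. Leaving out the hypothalamus gave 4 at the low dose and leaving out the midbrain gave 34 for high minus low. With a replicate block on single arrays the counts were 318 over both doses, and between regions 26 over both doses, 3 at the high dose, 50 at the low dose and 13 for high minus low. The array numbers mark dye orientation, so the block stands for the dye and no pairing of animals.

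Leaving out 1 array at a time gave 67 to 82 genes at the high dose, 95 to 123 at the low dose, 19 to 22 at both, 59 to 136 over both doses, 2 to 7 between regions at the low dose and 1 to 2 for high minus low. Over the alternatives, values of named genes at a dose where they were called moved by less than the spread of the swap's arrays in 432 cases. They moved by more in 99. Leaving out 1 array cannot move a swap mean by more than that spread, so those settings fell among the 432 in advance. Named genes kept their limma call in 251 of the alternatives over both doses and lost it in 133, kept it in 128 and lost it in 80 between regions at the low dose, and kept it in 20 and lost it in 16 for high minus low. The signal was 2.33 to 2.72 times background in Cy3 and 3.96 to 5.27 times in Cy5, which limits ratios of dim genes.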
